A study of Homo sapiens with 12 samples.

Results

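MOLM-13 is an established human acute myeloid leukaemia line with an MLL-AF9 fusion gene and an internal tandem duplication of the receptor kinase gene FLT3. The genes described here are the 68 protein-coding genes whose RNA was lower in MOLM-13 cells given gilteritinib and MI-3454 together, while each agent on its own left the mean close to that of the DMSO control. They were chosen from CPM, a gene's count per 1000000 counts in the gene rows of its library, as means of 3 libraries per group. A gene was taken if it had at least 5 CPM with DMSO, if the combination mean was at most 0.6 of each of the other 3 means, and if each single-agent mean was 0.77 to 1.3 of the DMSO mean, with 0.5 CPM added to every mean. The 68 genes came from 9712 protein-coding genes at 5 CPM or more with DMSO, of 19934 protein-coding genes and 60668 gene rows in all. Of the 9712, the combination mean was at most 0.6 of the DMSO mean in 1182 and at most 0.6 of all 3 other means in 361. The mirror rule for genes raised by the combination alone found 67. With TMM scaling in place of library totals the rule took 107 genes, of which 65 are among the 68. Because the rule used the means of all 4 groups, every contrast between the groups is given for these genes as a description, with no test.

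Cells were treated for 8 days with DMSO as the vehicle control, with gilteritinib, which inhibits the FLT3 kinase, with MI-3454, which blocks the binding of menin to MLL1, or with both agents, 3 libraries per group. All groups share the line's MLL-AF9 and FLT3 lesions, the culture medium and the depletion of ribosomal RNA before library preparation. The doses are not in the labels, and the cultures are triplicates of 1 line, so the spread between libraries is that between cultures of that line. In such bulk RNA, fewer cells of a kind and less RNA per cell cannot be told apart.

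The members fall into recognisable groups. SREBF1 and INSIG1 belong to the sterol control system: SREBP proteins, encoded by SREBF1 and SREBF2, are held in the endoplasmic reticulum by INSIG1 when sterols are plentiful, and are otherwise cut free to switch on the genes of cholesterol and fatty acid synthesis. With the enzymes of those pathways they make up 11 members. Another 11 are replication-dependent histone genes, which are transcribed in S phase from clustered gene copies and whose RNA ends in a stem-loop in place of a poly(A) tail. The other 46 include chaperones, transcription factors such as ETV4 and ETV5 that act downstream of receptor kinases and MAP kinase, phosphatases that switch MAP kinases off, transporters and metabolic enzymes.

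The promoters of 3 histone members and of 4 sterol pathway members are shown, from the largest groups with a shared role. Among the 9 lipid members with a promoter entry, the 4 printed are the only ones that hold CCAAT. Each window ends 1 base before the annotated start and is written from RefSeq's table on GRCh38.p14, 5′ to 3′ on the gene's own strand. In the histone promoters, capitals mark CCAAT (bound by NF-Y) and TATAAA (the TATA box).
H1-3 (chr6:26234988-26235107, minus strand): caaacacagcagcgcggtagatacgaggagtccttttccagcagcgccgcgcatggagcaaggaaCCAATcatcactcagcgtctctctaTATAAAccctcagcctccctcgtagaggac
H2BC8 (chr6:26216689-26216808, minus strand): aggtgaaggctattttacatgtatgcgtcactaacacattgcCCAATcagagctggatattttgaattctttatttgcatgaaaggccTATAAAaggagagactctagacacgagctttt
H3C10 (chr6:27809931-27810050, plus strand): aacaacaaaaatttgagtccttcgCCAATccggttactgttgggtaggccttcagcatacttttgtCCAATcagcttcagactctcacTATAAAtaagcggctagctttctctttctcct

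In the sterol pathway promoters, capitals mark GGGCGG (bound by SP1), CCAAT (written ATTGG where it lies on the other strand), CACGTG (an E-box) and TATAAA. Matches may share bases, as the first matches to the SP1 sequence do in INSIG1, and the E-box reads the same on both strands.
MVD (chr16:88663092-88663271, minus strand): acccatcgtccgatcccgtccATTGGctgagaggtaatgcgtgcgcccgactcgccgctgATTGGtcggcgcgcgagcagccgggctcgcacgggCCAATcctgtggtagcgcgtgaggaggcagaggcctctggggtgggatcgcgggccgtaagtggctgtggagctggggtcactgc
MVK (chr12:109573614-109573793, plus strand): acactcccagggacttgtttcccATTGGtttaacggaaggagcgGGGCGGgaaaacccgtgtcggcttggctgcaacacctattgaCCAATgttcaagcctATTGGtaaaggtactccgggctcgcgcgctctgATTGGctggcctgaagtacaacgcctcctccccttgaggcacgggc
INSIG1 (chr7:155297698-155297877, plus strand): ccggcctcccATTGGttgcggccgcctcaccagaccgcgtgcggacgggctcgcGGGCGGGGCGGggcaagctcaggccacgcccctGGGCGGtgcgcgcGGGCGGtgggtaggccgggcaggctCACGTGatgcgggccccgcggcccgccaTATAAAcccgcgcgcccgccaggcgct
LSS (chr21:46228775-46228954, minus strand): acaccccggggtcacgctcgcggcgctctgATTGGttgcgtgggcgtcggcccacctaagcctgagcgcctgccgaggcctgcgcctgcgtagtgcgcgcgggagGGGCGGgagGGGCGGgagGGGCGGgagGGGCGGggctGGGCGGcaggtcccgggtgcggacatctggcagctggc

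Searched on both strands over 250 bases before and 50 after the start, CCAAT was found in 10 of 11 histone members (90.9%), in 27 of 33 other histone genes with an entry (81.8%) and in 37.6% of the 8024 promoters of the 9712 genes. TATAAA was found in 8 of 11 histone members (72.7%), 23 of 33 other histone genes (69.7%) and 5.27% of all promoters. In the 3 histone promoters printed, TATAAA begins 30 to 32 bases before the start. Among the histone members not printed, the only match can lie further upstream, as at positions -189 and -206. Among the 9 lipid members with an entry, CCAAT was found in 4, GGGCGG in 8, CACGTG in 2 and TATAAA in 1, against 37.6%, 72% (5775 promoters), 10.8% and 5.27% of all promoters. The sterol-type sequence TCACNCCAC was in none of the 9 and in 1.05% of all promoters. MVD and MVK hold 3 and 5 CCAAT matches. An entry was found for 50 of the 68 members (73.5%), so no share is given over all members.

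Across the 68 genes, the combination mean was a median of 0.443 of the DMSO mean, 0.440 of the gilteritinib mean and 0.494 of the MI-3454 mean, against 0.993, 1.01 and 1.02 over the 9712 genes. Gilteritinib and MI-3454 alone stood at medians of 0.922 and 0.876 of DMSO, against 0.979 and 0.973. In 66 members all 3 combination libraries lay below the 9 other libraries, and 15.4% of the 9712 genes have this order. The exceptions are PLS1, which encodes an actin-bundling plastin, and the histone gene H4C12, where 1 combination library overlaps an MI-3454 library. On the log2 scale, edgeR's change for the combination against DMSO ranged from -4.20 to -0.95 among members, with a median of -1.29, while that of all 13972 tested genes was at 0.00.

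**Figure D1:**
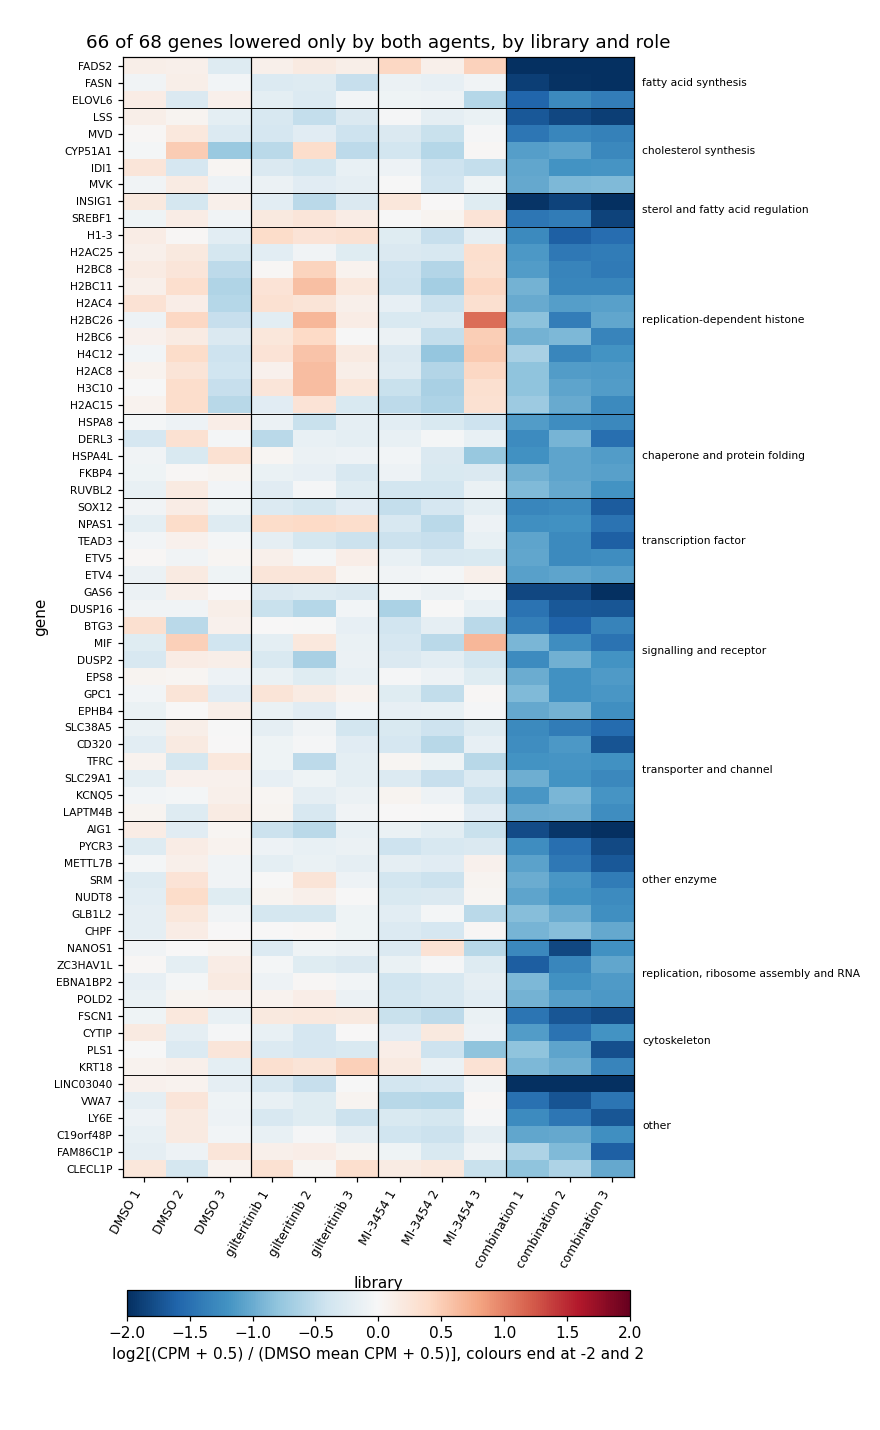
Each row is 1 of 66 of the 68 genes and each column 1 of the 12 libraries, with colour showing the log2 ratio of CPM plus 0.5 to the DMSO mean plus 0.5. The 3 combination columns are blue in every role, with the deepest colour in LINC03040, FADS2 and FASN, and the histone rows also differ between libraries within a group.

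All 68 genes passed edgeR's filter on low counts and all 68 were called lower with the combination against DMSO, gilteritinib and MI-3454, where 28.4%, 30.3% and 15.1% of tested genes were called lower and 29.2%, 30.1% and 14.1% higher. These contrasts chose the members and nothing is read from the counts. No member was called with gilteritinib or MI-3454 alone, where 8.18% and 8.95% of tested genes were called lower and 6.92% and 10.1% higher.

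The number of members called under a single agent depended on the fit. The sample titles do not state that equal replicate numbers mark paired cultures. With libraries blocked by replicate number, edgeR called 13 members lower and 11 higher with gilteritinib than with DMSO, against 17.6% and 17.7% of tested genes, with log2 changes from -0.35 ± 0.10 (SE) for AIG1, a hydrolase of fatty acid esters, to 0.45 ± 0.18 (SE) for the transcription factor gene NPAS1. Leaving out DMSO 2 gave 4 lower and 8 higher, against 14.7% and 13.8% of tested genes. Leaving out the 4 libraries highest in RN7SL1, which are described with the histones, gave 7 lower and 8 higher, against 15.2% and 15.3%. With MI-3454 alone, 14 members were called lower once MI-3454 3 was left out, against 10.2% of tested genes, and 16 without those 4 libraries, against 14.5%. The rule used these contrasts as well, and nothing is read from the counts.

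To see the members' pattern in libraries that did not choose them, the rule was applied without replicate 1, 2 or 3 of every group and the 4 libraries left out were then read. It chose 78, 65 and 50 genes. In the libraries left out, the combination was the lowest of the 4 in 76 of 78 (97.4%), 65 of 65 (100%) and 49 of 50 (98%), against 39.5%, 27.5% and 29.1% of all genes that met the same DMSO level. Median combination-to-DMSO ratios there were 0.488, 0.395 and 0.386, and median combination-to-MI-3454 ratios were 0.555, 0.571 and 0.543. The chosen genes' median MI-3454-to-DMSO ratios were 0.861, 0.713 and 0.759, against 0.9885, 1.083 and 0.8757 for all genes. In the libraries of replicates 2 and 3 this median thus lay below the rule's band for single agents. Median gilteritinib-to-DMSO ratios of the chosen genes, 0.9505, 0.869 and 0.841, stayed within that band. All 3 combination ratios were within 0.6 for 52.6%, 50.8% and 60% of the chosen genes, against 3.80%, 3.20% and 4.46% of all. Every limit, the band for single agents included, was met by 28.2%, 16.9% and 28% of the chosen genes, against 0.947%, 0.483% and 1.33%.

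The values next to the limits were close. The members nearest the band's edges were AIG1 with a gilteritinib-to-DMSO ratio of 0.778 and BTG3 with an MI-3454-to-DMSO ratio of 0.777, and just outside lay DHCR7 at 0.769 and PLEKHF1 at 0.765. NPAS1 was just inside the upper edge with gilteritinib at 1.297, and ARMC5 just outside at 1.302. Nearest to the upper MI-3454 edge was H2BC26 at 1.27, with CST7 outside at 1.41. RUVBL2 had a combination-to-MI-3454 ratio of 0.598 and EEF2KMT, outside, 0.604. For gilteritinib, GLB1L2 was inside at 0.593 and TRIM9 outside at 0.602, and for DMSO CLECL1P was inside at 0.573 and SPR outside at 0.630. NANOS1 had the lowest DMSO mean, 5.29 CPM, and SMIM10 missed the minimum at 4.02 CPM. 18 members were chosen in all 12 repeats that each left out 1 library, and 2, the histone genes H2BC11 and H3C10, in 6 or fewer.

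Fatty acid synthesis held 2 of the 3 lowest combination-to-DMSO ratios. FASN encodes fatty acid synthase, which builds palmitate from malonyl-CoA. Its level was 1534, 1759 and 1548 CPM with DMSO, 1340, 1352 and 1177 with gilteritinib, 1485, 1446 and 1531 with MI-3454 and 438, 409.8 and 371 with the combination. The 9 libraries outside the combination lay between 1177 and 1759 CPM, all above the combination, whose mean was 0.252 of DMSO. The log2 change against DMSO was -2.09 ± 0.13 (SE), beside -0.29 ± 0.12 (SE) with gilteritinib and -0.12 ± 0.13 (SE) with MI-3454.

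FADS2 encodes the delta-6 desaturase of polyunsaturated fatty acid synthesis. It was at 259.8, 256 and 200.5 CPM with DMSO, 258, 272 and 259 with gilteritinib, 317, 258 and 329 with MI-3454 and 54.7, 50.7 and 37.5 with the combination. Its combination mean was 0.201 of DMSO, with no overlap, and the single agents did not lie below DMSO: the log2 change was 0.16 ± 0.13 (SE) with gilteritinib, 0.34 ± 0.16 (SE) with MI-3454 and -2.42 ± 0.16 (SE) with both. ELOVL6, which elongates palmitate to stearate, was at 36.1, 26.4 and 34.8 CPM with DMSO, 28.2, 26.8 and 31.3 with gilteritinib, 30.4, 30.2 and 21.6 with MI-3454 and 10.5, 13.1 and 12.2 with the combination. The combination was again lowest in every library, with a log2 change of -1.54 ± 0.15 (SE).

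SREBF1, the gene of SREBP-1, was at 386, 452 and 391 CPM with DMSO, 468, 484 and 455 with gilteritinib, 407, 424 and 495 with MI-3454 and 151, 156 and 113 with the combination. All 3 gilteritinib libraries were above the highest DMSO library, whereas the combination libraries were the lowest of the 12 and stood -1.65 ± 0.14 (SE) from DMSO on the log2 scale. INSIG1, which retains SREBPs in the endoplasmic reticulum and is itself a target of them, was at 496, 338 and 461 CPM with DMSO, 374, 298 and 354 with gilteritinib, 505, 432 and 364 with MI-3454 and 111, 119.7 and 103 with the combination. Its log2 change was -2.05 ± 0.13 (SE) with the combination and 0.01 ± 0.15 (SE) with MI-3454.

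The cholesterol synthesis members described here act in the mevalonate steps (MVK, MVD, IDI1) and the sterol steps (LSS, CYP51A1). LSS, which closes the sterol ring system to make lanosterol, was at 234, 223 and 187 CPM with DMSO, 172, 154 and 176 with gilteritinib, 211, 189.6 and 195 with MI-3454 and 66.2, 60.5 and 57.6 with the combination. MVD, which makes isopentenyl diphosphate, was at 129.6, 148 and 106 CPM with DMSO, 101, 109.5 and 95.6 with gilteritinib, 104, 93.6 and 125 with MI-3454 and 46.6, 51.3 and 49.6 with the combination. CYP51A1, the lanosterol demethylase, was at 9.53, 14.1 and 5.65 CPM with DMSO, 6.55, 12.6 and 6.67 with gilteritinib, 7.46, 6.37 and 9.97 with MI-3454 and 4.26, 4.41 and 3.71 with the combination. The DMSO libraries of CYP51A1 spanned 5.65 to 14.1 CPM, with a coefficient of variation of 43.3% against 11.4% for LSS and 16.5% for MVD. All combination libraries of the 3 genes were below all others. The log2 changes with the combination were -1.90 ± 0.13 (SE) for LSS, -1.49 ± 0.13 (SE) for MVD and -1.35 ± 0.29 (SE) for CYP51A1. MVK, mevalonate kinase, had means of 49.2, 43.5, 44.4 and 25.5 CPM with DMSO, gilteritinib, MI-3454 and the combination. In that order IDI1, the isopentenyl diphosphate isomerase, had 104, 86.8, 83.5 and 47.2 CPM.

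**Figure D2:**
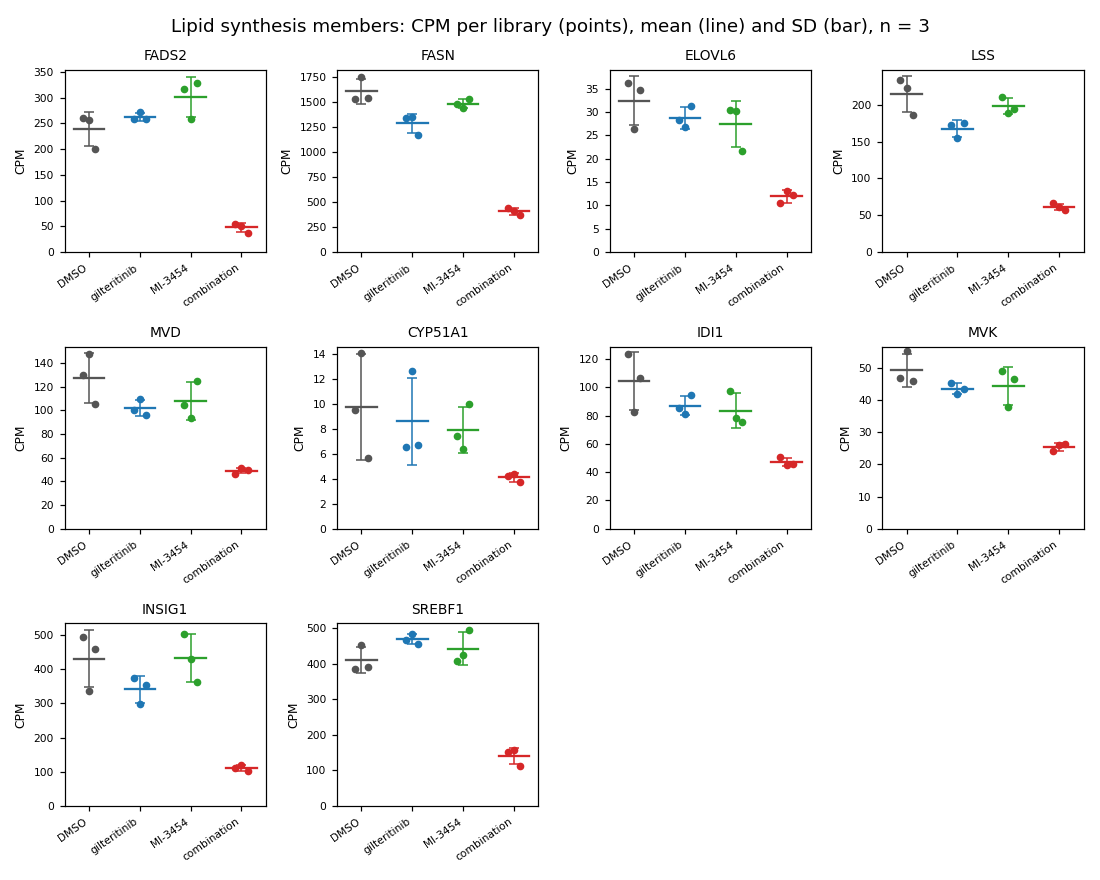
Each panel gives CPM of 1 of 10 lipid members on a linear axis from 0, with a point for each library, a line at the mean of 3 libraries and a bar of 1 SD. The combination points are below all others in each panel, and the DMSO points of CYP51A1 are the most spread, from 5.65 to 14.1 CPM.

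The rest of these pathways was lower as well, although most of it did not meet the rule. In a list of 25 cholesterol synthesis genes, 24 were tested, 7 are members, and all 24 were called lower with the combination against DMSO, with a median log2 change of -1.21. Among the 17 tested genes that are no members, all 17 fell. Gilteritinib alone lowered 4 of the 24 and raised none (11 lower and 2 higher with the replicate block), and MI-3454 alone lowered 3 and raised none (7 lower without the 4 libraries highest in RN7SL1). The interaction, which measures how far the combination departs from the sum of the single-agent log2 changes, was called negative in 15 of the 24, against 8.74% of all tested genes, and positive in none; without those 4 libraries it was 21 and 1. The 15 include all 7 members but CYP51A1, and the rule fixes the direction of the interaction for members. The combination had the lowest of the 4 group means in 22 of 24.

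HMGCS1, which makes HMG-CoA for the mevalonate pathway, fell furthest of the cholesterol genes outside the rule. HMGCS1 was at 369, 248 and 323 CPM with DMSO, 206, 162 and 210.3 with gilteritinib, 233, 191 and 156 with MI-3454 and 44.04, 44.6 and 50.98 with the combination. The single agents alone took it from a DMSO mean of 313 CPM to 193 and 193 CPM, outside the band, with edgeR's adjusted p of 0.00582 and 0.00964. With the combination it fell by 2.85 ± 0.14 (SE) on the log2 scale (edgeR adjusted p = 2.43e-11). DHCR7, the enzyme before cholesterol, fell by 2.08 ± 0.13 (SE) (edgeR adjusted p = 6.67e-10) and missed the band under gilteritinib by the margin given above. SQLE, squalene epoxidase, fell by 1.78 ± 0.12 (SE) (edgeR adjusted p = 2.38e-09) and ACAT2, which makes acetoacetyl-CoA, by 1.68 ± 0.12 (SE) (edgeR adjusted p = 6.80e-09).

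Of 13 fatty acid synthesis genes 12 were tested and 4 are members. The combination lowered 11 and raised none, with a median log2 change of -1.60, and without the 4 libraries highest in RN7SL1 it lowered all 12. Gilteritinib alone lowered 4 and raised none (7 and 1 with the replicate block), and MI-3454 alone lowered 2 and raised 1. The interaction was negative in 8, which include all 4 members, whose direction the rule fixes. SCD, the stearoyl-CoA desaturase that makes monounsaturated fatty acids, had the largest fall of the list. SCD was at 2253, 1699 and 2038 CPM with DMSO, 1520, 1335 and 1569 with gilteritinib, 2186, 1947 and 1832 with MI-3454 and 263, 247 and 207 with the combination. Its combination libraries lay below all 9 others, and it stayed outside the rule because gilteritinib alone took it to 1475 CPM (edgeR adjusted p = 0.0337). It fell by 3.16 ± 0.14 (SE) with the combination (edgeR adjusted p = 1.17e-11). FADS1, the delta-5 desaturase gene that neighbours FADS2, moved in opposite directions under the single agents, with log2 changes of -0.41 ± 0.12 (SE) with gilteritinib (edgeR adjusted p = 0.0332) and 0.47 ± 0.13 (SE) with MI-3454 (edgeR adjusted p = 0.0262), and fell by 1.78 ± 0.13 (SE) with both (edgeR adjusted p = 7.08e-09). ACACA, the acetyl-CoA carboxylase upstream of FASN, fell by 1.36 ± 0.11 (SE) (edgeR adjusted p = 2.33e-08), and ME1, malic enzyme, by 1.99 ± 0.44 (SE) (edgeR adjusted p = 0.00103).

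**Figure D3:**
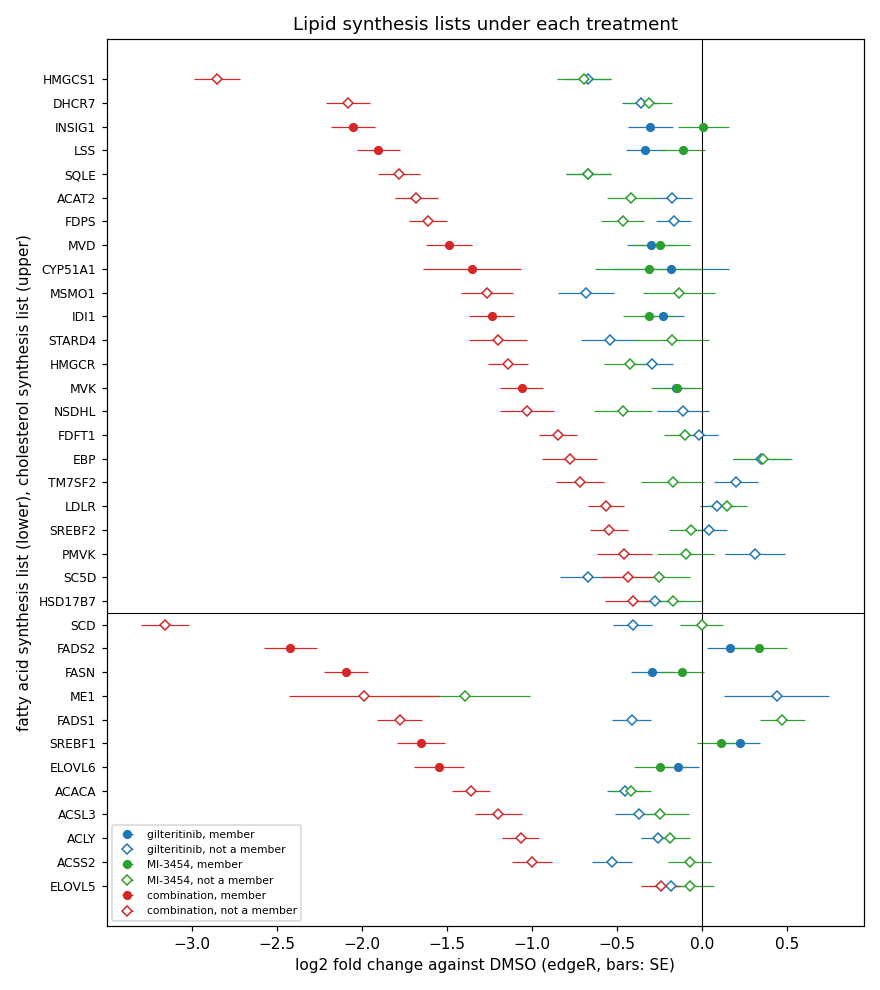
The plot gives edgeR's log2 fold change against DMSO, with bars of 1 SE, for 23 of the tested cholesterol genes (upper) and 12 tested fatty acid genes (lower) under each treatment, with filled circles for members and open diamonds for other genes. The combination points lie left of 0 for all 35 genes, from -3.16 for SCD to -0.24 for ELOVL5, which was not called, while most single-agent points lie between -0.7 and 0.5.

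Before the histones, 1 library of each group needs naming: DMSO 2, gilteritinib 2, MI-3454 3 and combination 1 were, within their groups, the libraries richest in RN7SL1, a noncoding RNA that is part of the signal recognition particle. RN7SL1 took 2.31% to 4.27% with DMSO, 2.22% to 2.88% with gilteritinib, 2.02% to 4.56% with MI-3454 and 1.17% to 1.66% of gene counts with the combination. Reads placed outside exons were 16.6% to 20.4%, 15.6% to 17.8%, 17.4% to 25.5% and 28.5% to 36.5% of uniquely placed reads in the same order. The same 4 libraries were also the lowest of their groups in reads outside exons. In reads ambiguous between genes they were the highest, at 9.45%, 10.2%, 10.3% and 5.82%. Leaving out these libraries therefore does not separate RN7SL1 from the other measures. The part of these differences in the members' values was not tested. Total gene counts per library were 9020916 to 11147953 with DMSO, 9028112 to 12051457 with gilteritinib, 8983203 to 9930198 with MI-3454 and 6472940 to 11261893 with the combination.

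The 11 histone members are H1-3, a linker histone, 4 genes of H2A, 4 of H2B, 1 of H3 and 1 of H4. Near-identical copies of these genes make the split of reads between them uncertain. H1-3 was at 135, 123 and 105 CPM with DMSO, 156, 147 and 149 with gilteritinib, 102, 87.6 and 107 with MI-3454 and 49.5, 38.8 and 41.9 with the combination. H3C10, which encodes histone H3, was at 456, 587 and 332 CPM with DMSO, 543, 699.9 and 535 with gilteritinib, 337, 292 and 572 with MI-3454 and 263, 219.5 and 210.0 with the combination. Gilteritinib libraries were the highest for H1-3, with no overlap with DMSO, and the combination libraries were the lowest for both genes. The log2 changes with the combination were -1.58 ± 0.14 (SE) and -1.10 ± 0.18 (SE), and with gilteritinib 0.35 ± 0.12 (SE) and 0.40 ± 0.21 (SE).

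The histone members also differed between libraries of the same treatment, a comparison the rule did not use. The library with the highest RN7SL1 share was the highest of its group for 9 of the 11 with DMSO, 9 with gilteritinib, 11 with MI-3454 and 10 with the combination. The same libraries were the highest of their group for 38, 34, 42 and 42 of all 68 members and for 3093, 2192, 2745 and 2691 of the 9712 genes. Other members shared this in part: among the 7 other enzymes, DMSO 2 and combination 1 were each the highest for 6. The histone members' summed level was 1853, 2106 and 1254 CPM with DMSO, 1961, 2488 and 1927 with gilteritinib, 1353, 1149 and 2190 with MI-3454 and 919.5, 759.5 and 738.3 with the combination. MI-3454 3 therefore stood nearer to the gilteritinib libraries than to MI-3454 1 and 2, and the combination was below all others. Among the 4 libraries highest in RN7SL1 alone, the median combination-to-DMSO ratio of the histone members was 0.449, and in the other 8 libraries it was 0.494. The combination-to-MI-3454 ratio was 0.398 in those 4 and 0.571 in the other 8.

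**Figure D4:**
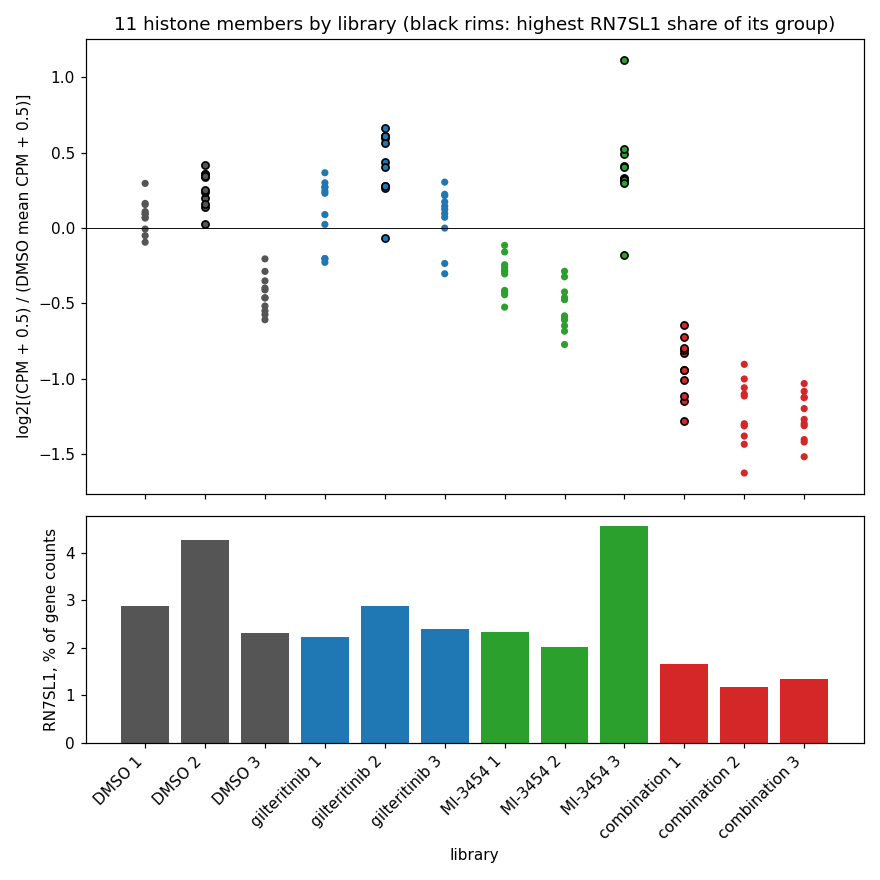
The upper panel gives the log2 ratio of CPM plus 0.5 to the DMSO mean plus 0.5 for the 11 histone members in each library, with black rims on the library of each group with the most RN7SL1, and the lower panel the RN7SL1 share of gene counts in percent, from 1.17% to 4.56%. Rimmed points are mostly the highest of their group, and for 10 of the 11 genes every combination point lies below that gene's 9 other points.

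Of 66 histone rows found by symbol, a list drawn up after the members were seen, 53 were tested and the combination mean was the lowest of the 4 in all 53. The combination lowered 46 and raised none against DMSO, with a median log2 change of -0.89, and 35 of the 42 that are no members fell. Gilteritinib raised 3 and lowered none, with a median of 0.46, and with the replicate block it raised 44 (36 without the 4 libraries highest in RN7SL1). MI-3454 lowered 1 (3 without those libraries) and raised none. The interaction was negative in 29 and positive in none, and in 48 without those 4 libraries. The 29 include every histone member but H2AC15, and the rule fixes the direction of the interaction for members. A level above 1.3 of DMSO with gilteritinib kept 31 of the 42 out of the rule, and for 10 of them this was the only limit missed.

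Other genes of S phase had median changes in the same directions as the histone genes with gilteritinib and with the combination. These medians were smaller, and the shares of genes called differed from those of the histones. In a list of 28 replication and S phase genes, none a member, gilteritinib raised 11 and lowered none (median log2 change 0.32; 22 raised with the replicate block, 18 raised and 1 lowered without the 4 libraries highest in RN7SL1) and the combination lowered 17 and raised 1 (median -0.32). The interaction was negative in 20. In the G2 and M phase list of 24 genes, gilteritinib raised 19 and the combination lowered 3 and raised 5 (5 and 5 without those libraries). POLD2, a subunit of DNA polymerase delta, is a member outside these lists, with means of 117, 119.7, 95.2 and 55.95 CPM.

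The members of signalling include the ligand gene GAS6, which encodes the ligand of the TAM receptors AXL, MERTK and TYRO3. GAS6 was at 259, 302 and 283 CPM with DMSO, 230.5, 235 and 229.8 with gilteritinib, 269, 258 and 272 with MI-3454 and 79.4, 79.2 and 55.8 with the combination. The gilteritinib libraries were tightly grouped just below DMSO, and the combination mean was 0.256 of DMSO, a log2 change of -2.07 ± 0.14 (SE). MIF, the macrophage migration inhibitory factor, was at 38.8, 63.9 and 34.7 CPM with DMSO, 40, 53.3 and 41.8 with gilteritinib, 36.2, 31.2 and 72.8 with MI-3454 and 23.97, 19.01 and 16.2 with the combination, with its highest value in MI-3454 3; it has an antisense gene, and the strand setting of the counts is not known. EPHB4, an ephrin receptor, had means of 32.2, 29.3, 29.8 and 15.2 CPM.

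DUSP16, a phosphatase of JNK and p38, was at 9.80, 9.78 and 11.2 CPM with DMSO, 7.38, 6.76 and 9.84 with gilteritinib, 6.46, 10.2 and 9.16 with MI-3454 and 3.37, 2.83 and 2.78 with the combination. DUSP2, a phosphatase of ERK and p38, was at 17.9, 24.9 and 24.3 CPM with DMSO, 18.01, 14.1 and 20.4 with gilteritinib, 18.1, 19.2 and 17.2 with MI-3454 and 9.06, 11.2 and 9.42 with the combination. The combination libraries were the lowest for both, and for DUSP2 the nearest other library was gilteritinib 2 at 14.1 CPM. ETV4 and ETV5 are ETS factors induced by MAP kinase signalling. ETV5 was at 67.9, 64.1 and 69.1 CPM with DMSO, 72.02, 65.3 and 73.7 with gilteritinib, 60.7, 53.6 and 54.1 with MI-3454 and 32.5, 27.4 and 28.1 with the combination, and ETV4 at 17.7, 21.8 and 17.96 CPM with DMSO, 22.8, 22.8 and 19.7 with gilteritinib, 18.1, 18.7 and 20.5 with MI-3454 and 8.79, 8.94 and 8.65 with the combination. The combination mean was 0.442 of DMSO for ETV5 and 0.473 for ETV4, while gilteritinib did not lie below DMSO, with log2 changes of 0.10 ± 0.09 (SE) and 0.21 ± 0.15 (SE), beside -1.28 ± 0.12 (SE) and -1.23 ± 0.16 (SE) with both agents.

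ETV4, ETV5 and DUSP2 are the 3 members of a list of 16 MAP kinase feedback and output genes. Of its 15 tested genes the combination lowered 11 and raised 1, gilteritinib lowered 4 and raised 1, and MI-3454 lowered 2 and raised 1. CCND1, cyclin D1, had the largest fall outside the rule (edgeR adjusted p = 4.31e-08). Only 3 counts remained with the combination against 180 with DMSO, a ratio of 0.0196 with an exact 95% counting interval of 0.00401 to 0.0583. With MI-3454 alone CCND1 fell by 2.80 ± 0.39 (SE) (edgeR adjusted p = 3.04e-04). IER3, an immediate early response gene, fell with each agent and with both fell by 1.53 ± 0.14 (SE) (edgeR adjusted p = 6.13e-08) on the log2 scale. FOSL1, an AP-1 subunit, fell by 1.47 ± 0.19 (SE) (edgeR adjusted p = 6.35e-06) and SPRED1, an inhibitor of RAS signalling, fell by 1.00 ± 0.18 (SE) (edgeR adjusted p = 1.31e-04). The 1 gene raised was DUSP6, an ERK phosphatase named after its values were seen, by 0.99 ± 0.13 (SE) with the combination and 1.26 ± 0.15 (SE) with MI-3454. The genes of this list thus did not share 1 direction under the single agents.

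Among transporters, TFRC, the transferrin receptor of iron uptake, was at 686, 512 and 756 CPM with DMSO, 612, 454 and 570.1 with gilteritinib, 670.0, 613 and 444 with MI-3454 and 283, 286 and 282 with the combination. The 3 combination libraries lay close together, and the lowest library of any other group was at 444.4 CPM. In the iron and haem list, of 12 tested genes, TFRC included, the combination lowered 2 and raised 4 (4 and 3 without the 4 libraries highest in RN7SL1). CD320, the receptor for vitamin B12 bound to transcobalamin, had means of 47.9, 44.4, 37.8 and 18.4 CPM, SLC38A5, a glutamine transporter, of 59.5, 51.6, 47.3 and 22.2 CPM, and SLC29A1, a nucleoside transporter, of 55.2, 49.9, 43.6 and 24.7 CPM.

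HSPA8, the constitutive HSC70 chaperone, was at 1180, 1121 and 1325 CPM with DMSO, 1110, 884 and 1065 with gilteritinib, 1046, 983 and 904 with MI-3454 and 555, 511 and 494 with the combination. The combination mean was 0.431 of DMSO and the single agents lay slightly below DMSO, with log2 changes of -0.22 ± 0.11 (SE) with gilteritinib and -0.30 ± 0.11 (SE) with MI-3454. Of the 19 other tested chaperone genes, 15 fell with the combination and 1 rose. The co-chaperone FKBP4 had means of 133, 115, 113 and 64.9 CPM. RUVBL2, an ATPase that assembles snoRNPs and chromatin remodelling complexes, was at 247, 311 and 263 CPM with DMSO, 233, 270.5 and 230.5 with gilteritinib, 211, 212 and 249 with MI-3454 and 148, 135 and 119 with the combination. The combination was lowest in every library, with a log2 change of -1.13 ± 0.13 (SE). In the list of telomerase and snoRNP genes 6 of 7 other tested genes fell with the combination.

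AIG1 was at 43.8, 33.5 and 40.5 CPM with DMSO, 28.96, 26.9 and 35.4 with gilteritinib, 35.8, 33.8 and 28.7 with MI-3454 and 11.01, 9.85 and 9.27 with the combination. METTL7B, a thiol methyltransferase of the endoplasmic reticulum, was at 74.7, 82.7 and 73.6 CPM with DMSO, 67.5, 70.3 and 68.1 with gilteritinib, 68.1, 65.5 and 82.2 with MI-3454 and 36.2, 28.4 and 23.3 with the combination. Both had the combination lowest in every library, with log2 changes of -2.05 ± 0.14 (SE) and -1.48 ± 0.15 (SE). SRM, spermidine synthase, had means of 109.9, 114, 93.3 and 48.4 CPM, and PYCR3, an enzyme of proline synthesis, of 50.3, 46.2, 39.6 and 17.4 CPM.

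FSCN1, the actin-bundling protein fascin, was at 163, 199.5 and 154 CPM with DMSO, 198, 199 and 198 with gilteritinib, 127, 119.8 and 158 with MI-3454 and 61.98, 52.4 and 49.6 with the combination. Its gilteritinib libraries lay together near 198 CPM, at the top of the DMSO range, and its log2 change with the combination was -1.75 ± 0.14 (SE). KRT18, a keratin also in the list of epithelial markers, had means of 9.19, 11.9, 10.04 and 4.17 CPM. Of the other epithelial markers, KRT8 had means of 2.75, 2.27, 2.41 and 2.25 CPM in the same order. KRT19 and CDH1 had no count and EPCAM at most 0.0370 CPM. The summed epithelial list was 10.4 to 13.1 CPM with DMSO and 5.72 to 7.70 CPM with the combination, KRT18 being most of it. Of 13 markers of the line and of myeloid leukaemia, 11 reached 1 CPM, KIT did not and IL3RA had no count.

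The remaining members are given by role. Of the chaperone and folding genes, DERL3 (degradation of misfolded proteins at the endoplasmic reticulum) and HSPA4L, an HSP110-type chaperone, had combination-to-DMSO ratios of 0.433 and 0.459. The transcription factor genes SOX12, TEAD3 and NPAS1 had means of 120.4, 98.7, 95.4 and 45.2 CPM, 28.5, 22.8, 22.4 and 11.3 CPM and 5.65, 7.48, 4.47 and 1.99 CPM, and the 5 factors as a group ran from 0.378 to 0.473. Of the signalling genes, GPC1 (a heparan sulphate proteoglycan), EPS8 (an adaptor of EGF receptor signalling) and BTG3 (an antiproliferative factor) lay within the group's range of 0.256 to 0.479. The transporter group, with the potassium channel KCNQ5 and the lysosomal protein LAPTM4B, ran from 0.379 to 0.480. The enzymes NUDT8, CHPF and GLB1L2 belong to a group with ratios of 0.265 to 0.523, EBNA1BP2, a ribosome assembly factor, and ZC3HAV1L in one of 0.375 to 0.480, and CYTIP and PLS1 in one of 0.319 to 0.482. LY6E, a surface protein, had means of 173, 138, 148 and 62.5 CPM.

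LINC03040 had the lowest combination-to-DMSO ratio of the 68. It was at 32.6, 32.02 and 27.1 CPM with DMSO, 24.5, 22.1 and 30.3 with gilteritinib, 23.5, 24.2 and 29 with MI-3454 and 1.86, 1.36 and 2.16 with the combination, so the combination mean was 0.0739 of DMSO, and its log2 change was -4.20 ± 0.20 (SE). No other member was below 0.2 of DMSO. The gene is listed as protein-coding in GENCODE release 29, while its present symbol is that of a noncoding RNA, and C19orf48P, FAM86C1P and CLECL1P likewise have symbols of pseudogenes. VWA7 was at 8.18, 11.1 and 8.76 CPM with DMSO, 8.38, 7.86 and 9.73 with gilteritinib, 6.23, 6.16 and 9.47 with MI-3454 and 3.02, 2.49 and 3.09 with the combination, and NANOS1, an RNA-binding repressor of translation, at 5.04, 5.29 and 5.54 CPM with DMSO, 4.32, 4.98 and 4.81 with gilteritinib, 4.23, 6.59 and 3.42 with MI-3454 and 1.86, 1.13 and 2.01 with the combination. The combination libraries were below all others for both, with log2 changes of -1.81 ± 0.23 (SE) and -1.76 ± 0.27 (SE).

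Added together on the log2 scale, the changes under gilteritinib and MI-3454 alone came to a median of -0.29 over the 68 genes, with a range from -0.66 to 0.59, and the change with the combination to a median of -1.17. All 68 lay below the sum. Over the 9712 genes these medians were -0.06 and -0.01. edgeR's interaction was called negative in 62 members, and positive in none, where 8.74% of tested genes were called negative and 6.55% positive. The 6 not called are CYP51A1, MIF, DUSP2, PLS1, GLB1L2 and H2AC15, with interactions from -1.34 ± 0.45 (SE) for MIF to -0.66 ± 0.22 (SE) for DUSP2. Without the 4 libraries highest in RN7SL1, 67 were called negative and none positive, against 15.7% and 9.2% of tested genes. The rule fixes this direction, so these values only describe its size.

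**Figure D5:**
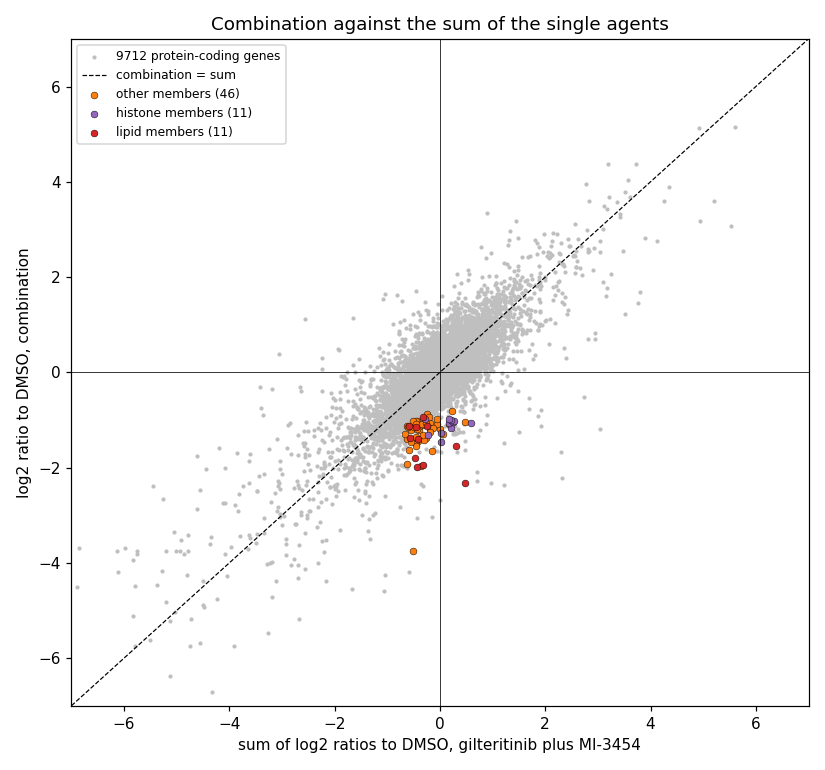
Each point is 1 of 9712 protein-coding genes, with the sum of the log2 ratios to DMSO of the 2 single agents on the x axis and that of the combination on the y axis; 8 genes lie outside the axes. The dashed line marks a combination equal to the sum, and the coloured members lie in a band just left and right of 0 on the x axis, all below the line.

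Other gene groups lowered by the combination are given for comparison. Of the 44 lists, 38 held no member, where members are 0.7% of the 9712 genes. In ribosome biogenesis the combination lowered 34 of 35 tested genes, but MI-3454 alone lowered 22 and gilteritinib alone 15 (25 with the replicate block), and the interaction was negative in 13 (20 without the 4 libraries highest in RN7SL1). Of 20 aminoacyl-tRNA synthetases the combination lowered 19, gilteritinib 14 and MI-3454 12. Of 24 mitochondrial ribosome genes it lowered 23, with a median log2 change of -0.70, and MI-3454 lowered 5 and gilteritinib 1 (9 without those libraries and 4 with the block). Genes downstream of the agents' targets changed with the single agents. PIM1, a STAT5 target downstream of FLT3, had means of 915.1, 48.8, 270.3 and 70.7 CPM with DMSO, gilteritinib, MI-3454 and the combination. In that order MEIS1, a target of the MLL fusion, had 67.0, 89.6, 10.9 and 5.43 CPM. MYC had 690.0, 445.5, 470.7 and 192 CPM. Of the targets' own genes, FLT3 had 689.8, 503.9, 225.5 and 202.3 CPM. MEN1, which encodes menin, had 47.6, 51.5, 44.8 and 39.7 CPM, and KMT2A, which encodes MLL1, 47.3, 51.3, 57.4 and 85.9 CPM. edgeR called FLT3 lower with each single agent and called neither MEN1 nor KMT2A with either. With the combination against DMSO, MEN1 was called lower, at -0.36 ± 0.13 (SE) on the log2 scale (edgeR adjusted p = 0.0265). KMT2A was called higher there, at 0.76 ± 0.10 (SE) (edgeR adjusted p = 9.26e-06).

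The members are shorter genes than the rest. Their median span was 12090 bases (GENCODE 29) against 32446 over the 9712 genes, and without histones it was 17440 against 32753. The median coding length was 1014 bases against 1422, and 1305 against 1425 without histones. On chromosome 6, which holds the main histone clusters, lay 15 members (22.1%, against 5.41%), of which 9 are histone genes; without histones it held 10.5% against 5.01%. Median promoter GC was 42.7% in the 11 histone members and 65.3% over all 8024 promoters. These figures describe the members and were not tested.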

How the data were processed

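RNA of 12 MOLM-13 libraries was analysed, 3 each with DMSO, gilteritinib, MI-3454 and both agents. The authors deposited whole-number counts of reads per gene, unnormalized, 1 file per library, in HTSeq's layout, per the file headers and values. Per the submitters' processing notes, the genome build was GRCh38, and STAR 2.7.1a, cutadapt 2.1, DESeq2 and HTSeq 0.11.2 are listed as tools without their roles. The strand setting is not given in the sources used here, nor is the annotation release, so genes that overlap or have near-identical copies (histones, MIF, KRT18, HSPA8, FAM86C1P) are uncertain. Groups and replicate numbers followed the sample titles, because a treatment label drifts in its trailing number in replicates of the groups with MI-3454.

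The 5 summary rows stayed out of library totals, which were 6472940 to 12051457 counts. CPM is each count per 1000000 gene counts. Biotypes and spans came from GENCODE 29, symbols from a gene name table and promoters from RefSeq (GRCh38.p14). Each pair of groups was fitted in edgeR 4.0.16 (R 4.3.3, quasi-likelihood, TMM, filterByExpr, 13972 genes tested), with Benjamini-Hochberg adjustment over all tested genes and calls at an adjusted p under 0.05, and the interaction was fitted on all 12 libraries. SE is the log2 change over the root of F. The fits were tested on simulated data with known fold changes. p-values measure the spread between triplicate cultures only, and counting intervals cover counting error only.

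The members, the 44 gene lists and the rule for named genes were chosen with earlier results of these data known. The rule names the 15 members with the smallest ratio to the lowest other mean and the 6 with the highest DMSO mean. It also names up to 4 members and up to 4 other genes per list and the genes nearest each limit. Targets of the agents and genes downstream of them were named as well. The results of 2 members are not reported here by gene. Other members are given by their means or their group's range.

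Replicate numbers were checked as pairs by correlating deviations from group means across genes. Same-numbered DMSO and gilteritinib libraries gave r of 0.18, 0.46 and 0.14, and differently numbered ones -0.363 to 0.262. DMSO 2 and gilteritinib 2, with r of 0.46, were each the highest in RN7SL1 of their group. So were DMSO 2 and MI-3454 3, with r of 0.580. The numbers are therefore not shown to be pairs. The block for gilteritinib against DMSO is given only beside the main value. In other pairs of groups, same-numbered libraries did not all exceed 0.1. Alternatives were DESeq2 1.42.0, other scalings and filters, the block, other limits of the rule, a joint fit, each library left out and, chosen after seeing the data, leaving out the 4 libraries highest in RN7SL1.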

Additional observations from a re-analysis of the deposited data

Results flagged for a closer look

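In the lipid and MAP kinase lists, 12 genes that are no members were named for the largest changes with the combination against DMSO. For 8 of them the combination's log2 change departed from the sum of the single-agent changes (edgeR interaction over 12 libraries, adjusted over 13972 genes). SQLE, ME1, IER3 and SPRED1 were not called. The interaction contains the change by which the genes were named, so the values describe its size and are no independent test. Among cholesterol genes the departure was -1.49 for HMGCS1 (adjusted p = 0.000129), -1.41 for DHCR7 (adjusted p = 5.42e-05) and -1.09 for ACAT2 (adjusted p = 0.000459). Among fatty acid genes it was -2.75 for SCD (adjusted p = 9.26e-08), -1.84 for FADS1 (adjusted p = 2.98e-06) and -0.49 for ACACA (adjusted p = 0.0274). CCND1 departed by -3.17 (adjusted p = 0.0192), a fitted value that rests on 3 counts with the combination, and FOSL1 by -1.79 (adjusted p = 0.00214).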

How the results depend on the processing

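The 25 named members and 12 other named genes kept their direction and their call against DMSO with the combination under every alternative (325 and 156 values). These genes were chosen or named by their change with the combination in the same libraries. Their stability was thus largely fixed beforehand, and nothing is read from it. The number of genes taken by the rule depends on its limits. It was 107 with TMM scaling (65 of the 68 among them), 33 and 181 with a combination limit of 0.5 and 0.7, and 31 and 133 with a band of 0.83 to 1.2 and of 0.67 to 1.5. Leaving out replicates gave 50 to 85 genes. Of the 68 members, 49 were among the 75 genes taken without the 4 libraries highest in RN7SL1.

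With gilteritinib, 2110 genes were called, against 4928 with the replicate block, 4250 without the 4 libraries highest in RN7SL1, and 1243 to 3985 with 1 replicate left out, the highest without DMSO replicate 2 and the other 5 from 1243 to 1401. Members called there were 24 with the replicate block, 15 without those 4 libraries, 3 with no filter, 1 in a joint fit of 12 libraries, and 0 to 12 with 1 replicate left out. With MI-3454, 2658 genes were called and 1678 with the replicate block, and 1815 to 2961 with 1 replicate left out. Members called there were 16 without the 4 libraries, 1 in the joint fit, and 0 to 14 with 1 replicate left out. For the combination against MI-3454 the count of 4075 genes ran from 2456 to 5074 with 1 replicate left out, the lowest without combination replicate 2 or 3. The interaction's 2136 became 3478 without the 4 libraries, and 1305 to 2698 with 1 replicate left out, the lowest without combination replicate 3 and 1365 without combination replicate 2. The replicate block moved no other count by over 1.5 times, with 68 members called in each combination contrast and 56 for the interaction. The smallest library, with the combination, held 6472940 counts, which limits the precision of genes near 2 CPM there.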

Other observations

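Genes of other biotypes that met the same limits were mostly small structured RNAs. They were 10 rows: RN7SL1, RN7SL4P, SNORA73B, SNORD15B, SNORD17, SCARNA5, RNU4-2, the pseudogenes FAM86B3P and FCGR1CP, and LINC02970. RN7SL1 had means of 31570, 25030, 29710 and 13880 CPM with DMSO, gilteritinib, MI-3454 and the combination. SNORA73B, a snoRNA of ribosomal RNA processing, had means of 287, 350.0, 287 and 98.1 CPM, and SNORD15B of 14.1, 13.8, 12.8 and 3.22 CPM. The U4 snRNA gene RNU4-2 had 14.7, 17.2, 17.7 and 6.25 CPM.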
